A study of Mus musculus with 8 samples.

Results

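The 10 genes described here belong to the circadian clock or to its direct output: the activator gene Clock, the repressor genes Cry1, Cry2, Per1, Per2 and Per3, the nuclear receptor genes Nr1d1 and Nr1d2, and the output genes Dbp and Ciart. They were taken by symbol from the 26824 genes of the deposited count table, and all 10 were found there. RNA was sequenced from mouse retinas at 1 month of age, in 3 libraries labelled WT (wild type) and 5 labelled KO for Kv8.2, the potassium channel subunit of photoreceptors that Kcnv2 encodes. Each library pooled the 2 retinas of a single animal, no treatment was given, and all animals lived under 12 hours of light and 12 hours of darkness. Library names run from WT 1 to WT 3 for the wild type and from KO 2 to KO 6 for the knockout. Strain, sex, the form of the deleted allele and the hour of dissection are not given in the sources used here. The comparison asks whether the clock genes, whose level depends on the time of day and on light, had the same level in both groups.

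The mammalian clock is a feedback loop of transcription. The CLOCK protein pairs with BMAL1 and activates genes through E-box sequences, among them the Per and Cry genes, whose proteins return to the nucleus and block that activation. A second loop runs through REV-ERB alpha and beta, the products of Nr1d1 and Nr1d2, which repress Bmal1 at sites that the activating ROR receptors share. DBP carries the rhythm onward by activating genes through D-box sequences, and CIART is a further repressor of CLOCK and BMAL1. The retina holds a clock of its own, which is set by light and modulates dopamine release and visual sensitivity. Since each animal was sampled a single time, the data hold levels, not rhythms.

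Binding letters of this loop stand in the promoters of several of these genes, which is why 7 stretches are shown before the values. RefSeq promoter windows of 300 bases around transcription starts, with coordinates on GRCm38.p6, were matched for 9 of the 10 genes. Per2 had no window and was not searched, and sequence outside the windows was not searched for any gene. The search used the E-box CACGTG, its variant CACGTT, the D-box core TTANGTAA, the core site AGGTCA of ROR and REV-ERB receptors, and the cAMP response element TGACGTCA, each on both strands. None of these motifs overlapped another in the stretches shown. Capitals mark the matches, and AACGTG and TGACCT are the variant E-box and the receptor core site read on the opposite strand.
Nr1d1, chr11:98775380-98775425 (- strand): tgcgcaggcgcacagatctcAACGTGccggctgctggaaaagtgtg
Nr1d2, chr14:18239158-18239203 (- strand): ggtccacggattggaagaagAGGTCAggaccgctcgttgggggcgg
Cry2, chr2:92434210-92434255 (- strand): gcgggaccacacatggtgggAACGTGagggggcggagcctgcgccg
Cry1, chr10:85185089-85185153 (- strand): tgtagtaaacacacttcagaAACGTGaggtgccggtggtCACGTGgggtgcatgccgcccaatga
Per1, chr11:69098763-69098837 (+ strand): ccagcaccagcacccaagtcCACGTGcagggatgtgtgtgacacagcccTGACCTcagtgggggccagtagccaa
Per3, chr4:151044796-151044890 (- strand): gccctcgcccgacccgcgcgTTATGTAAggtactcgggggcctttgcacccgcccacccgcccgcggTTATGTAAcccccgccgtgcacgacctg
Ciart, chr3:95882247-95882364 (- strand): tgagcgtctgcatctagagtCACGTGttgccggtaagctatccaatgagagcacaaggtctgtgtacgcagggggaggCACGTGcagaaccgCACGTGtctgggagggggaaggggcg
An E-box was found in the windows of Per1, Cry1 and Ciart, 3 of 9 genes, and for 8.09% of all 27025 genes with a window. The Ciart window held 3 E-boxes, which began 116, 58 and 44 bases before the transcription start. The variant CACGTT was found for Cry1, Cry2 and Nr1d1, and for 5.44% of all genes. Per3 alone of the 9 held the D-box core, in 2 copies, against 2.72% of all genes. The receptor core site was found for Per1, Clock and Nr1d2, and for 18.1% of all genes. No cAMP element was found in the windows of the 9 genes, and 2.03% of all genes held one. The Dbp window held none of the 5 motifs. These matches describe letters only.

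The retina libraries were first checked as a whole. All 18 retina markers (photoreceptor, bipolar, Müller, amacrine, horizontal and ganglion cell genes) were detected in each library, with summed levels of 41000 to 44000 CPM in WT and 35500 to 52700 CPM in KO, where CPM is a gene's counts per 1000000 library counts, scaled with edgeR's TMM factors (a trimmed mean of log ratios). Depth was 17759146 to 25188870 counts per library. Kcnv2 transcript was present in all libraries, at 519, 551 and 526 CPM in WT and at 585, 447, 398, 409 and 409 CPM in KO 2 to KO 6. KO differed from WT by -0.24 (SE 0.14) in log2 Kcnv2 level, adjusted p 0.275 by edgeR's quasi-likelihood test. It was -0.38 (SE 0.05, adjusted p 0.000116) in KO 4 to KO 6 and -0.04 (SE 0.15, adjusted p 0.903) in KO 2 and KO 3. The form of the deleted allele is unknown here, so this level does not settle the labels, and KO means "labelled KO" throughout. Libraries KO 4 to KO 6 stood apart from KO 2 and KO 3. The mitochondrial share of counts was 7.09% to 7.92% in WT, and among the KO libraries it was 6.52% in KO 2, 5.23% in KO 3 and 3.03% to 3.70% in KO 4 to KO 6. The summed level of 15 lens genes, a sign of lens tissue in the dissection, ran from 29.1 to 1720 CPM in WT, was 229 CPM in KO 2 and 51500 CPM in KO 3, and stayed at 2 to 11.9 CPM in KO 4 to KO 6. The series text states that the authors set 2 KO samples aside without naming them, so clock genes are given for all 5 KO libraries and, beside that, for KO 2 and KO 3 and for KO 4 to KO 6 against the same 3 WT libraries.

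With all 8 libraries none of the 10 clock genes passed the test at an adjusted p under 0.05, and the share of all tested genes that passed was 7.58% (4.74% higher and 2.84% lower in KO). All 10 clock genes had passed the filter on low counts, and the lowest count of any of them in a library was 194. Their log2 fold changes lay between -0.33 (Nr1d2) and 0.53 (Nr1d1), 6 above zero and 4 below, with a median of 0.10 beside 0.001 over all tested genes. At an unadjusted p under 0.05 there were 4 of the 10 (Nr1d1, Cry2, Nr1d2 and Per2), against 27.3% of all tested genes. In 4 of the 10 the KO libraries were fully separated from WT, Nr1d1 and Cry2 above and Nr1d2 and Per3 below, and 20.9% of all tested genes showed such a separation. Other tools gave other counts: DESeq2 called 2 of the 10 (Nr1d1 and Cry2; 18.0% of all genes with an adjusted p), robust edgeR estimation 1 (Nr1d1; 8.55%), and limma voom with library quality weights 6 (40.9%). The counts hinged on single libraries. Without KO 2, edgeR called 3 clock genes (Nr1d1, Nr1d2 and Per2; 13.9% of all genes), and without KO 3 it also called 3 (Nr1d1, Nr1d2 and Cry2; 20.0%). Without WT 1, WT 2 or WT 3 in turn, 0 clock genes and only 132, 135 and 199 of all genes were called, in place of 1529, and without KO 4, KO 5 or KO 6 in turn it was 0 clock genes and 365, 388 and 531 of all genes.

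**Figure D1:**
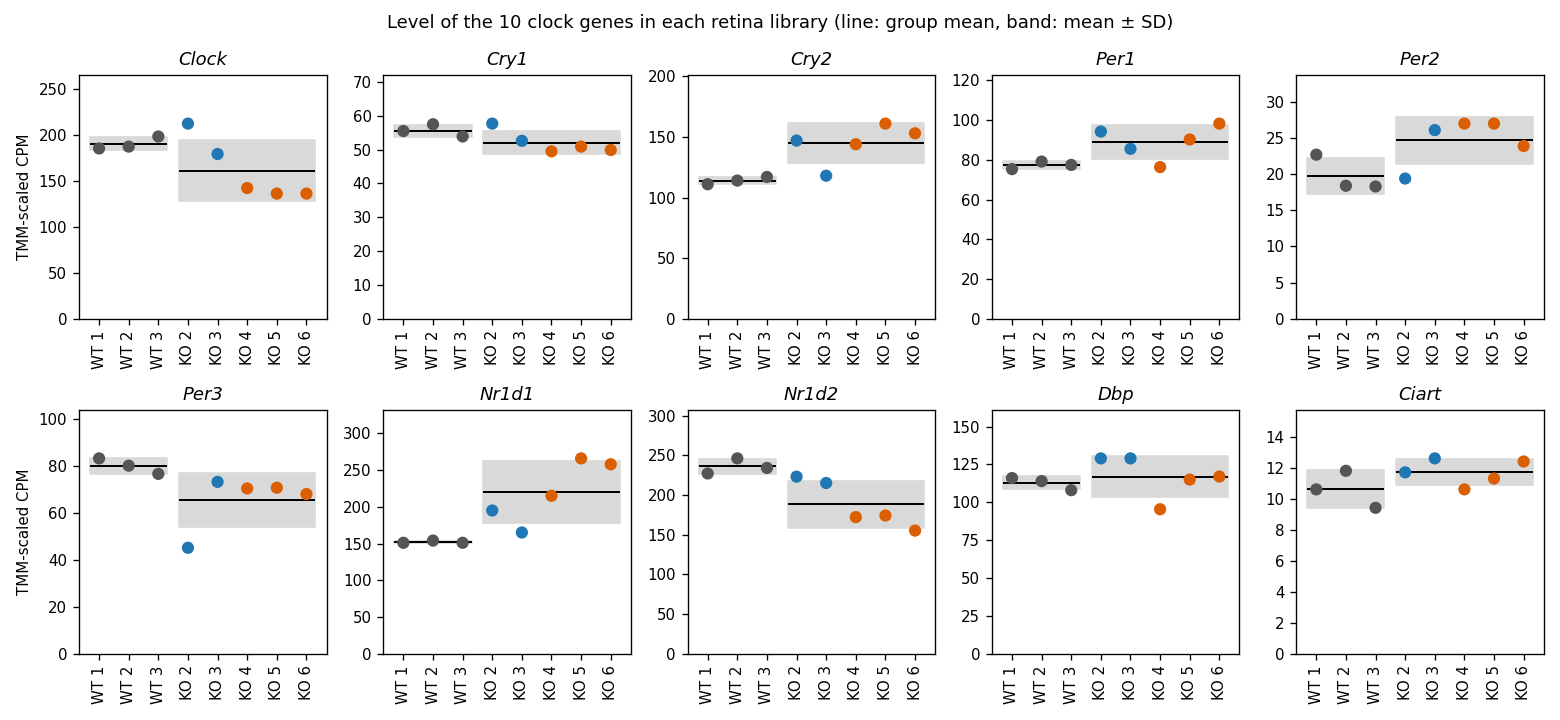
Level of each clock gene (TMM-scaled CPM, linear axis from 0) in the 8 retina libraries. Grey points are WT, blue points KO 2 and KO 3, orange points KO 4 to KO 6, lines are group means and bands the mean ± SD; Nr1d1 and Cry2 lie above WT in every KO library, Nr1d2 and Per3 below it.

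Nr1d1 had the largest difference of the 10. Nr1d1 (ENSMUSG00000020889, chr11:98767932-98775333 on GRCm38, minus strand) encodes REV-ERB alpha, the repressor of Bmal1. The WT libraries held it at 151, 154 and 151 CPM, the KO libraries (KO 2 to KO 6) at 195, 165, 215, 266 and 258 CPM. The WT libraries lay within 3 CPM of one another, every KO library lay above them, and the KO libraries were far more spread out. Mean levels were 152 ± 1.59 CPM (WT; SD, n = 3) and 220 ± 42.3 CPM (KO; SD, n = 5), a 1.44-fold difference (log2 0.53, SE 0.15, 95% interval 0.19 to 0.87), with an adjusted p of 0.0587 in edgeR. Exons of Nr1d1 overlap those of Thra, a thyroid hormone receptor gene on the opposite strand, by 263 bases. Thra was at 243 CPM in WT and 266 CPM in KO on average (log2 0.13, SE 0.09), and whether the counting told the strands apart is not given in the sources used here.

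Nr1d2 (ENSMUSG00000021775, chr14:18204054-18239127, minus strand), the gene of the related receptor REV-ERB beta, went the other way. Its level was 227, 246 and 234 CPM in WT, and 223, 215, 172, 174 and 155 CPM in KO 2 to KO 6. KO 2 lay just below the lowest WT library, and KO 4 to KO 6 lay well below it. The mean was 236 ± 9.20 CPM in WT and 188 ± 29.7 CPM in KO, a log2 fold change of -0.33 (SE 0.13, adjusted p 0.131 in edgeR). The receptor genes thus stood on opposite sides of WT in the same 5 libraries. The share of the 31-base words of Nr1d2 that also occur in another gene on the same strand, AC170187.1, is 9.51%.

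Of the Cry and Per genes, Cry2 had the lowest p-value with all 8 libraries. Cry2 (ENSMUSG00000068742, chr2:92403646-92434043, minus strand) and Cry1 (ENSMUSG00000020038, chr10:85131700-85185064, minus strand) encode cryptochromes, which block CLOCK and BMAL1. Cry2 was at 111, 114 and 117 CPM in WT and at 147, 118, 144, 161 and 153 CPM in KO 2 to KO 6. KO 3 was next to the highest WT library, and the other KO libraries were clear of it. The mean was 114 ± 2.75 CPM in WT and 145 ± 16.1 CPM in KO, 1.27-fold (log2 0.35, SE 0.11, adjusted p 0.0694 in edgeR). Its exons overlap those of D930015M05Rik on the opposite strand by 295 bases. D930015M05Rik was low, at 0.602 CPM in WT and 0.538 CPM in KO on average. Cry1 was at 55.5, 57.5 and 53.9 CPM in WT and at 57.7, 52.6, 49.5, 50.9 and 49.9 CPM in KO 2 to KO 6. The groups overlapped through KO 2, the log2 fold change was -0.09 (SE 0.08, adjusted p 0.465 in edgeR), and its SD of log2 CPM over all 8 libraries, 0.09, was the lowest of the 10.

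The Period genes did not share a direction. Per1 (ENSMUSG00000020893, chr11:69095217-69109960, plus strand), a repressor that light and cAMP signalling also induce, was at 75.3, 79.1 and 77.4 CPM in WT and at 94.2, 85.5, 76.3, 90.2 and 98.2 CPM in KO 2 to KO 6. Only KO 4 lay inside the WT range, and the log2 fold change was 0.20 (SE 0.09, adjusted p 0.183 in edgeR). Per2 (ENSMUSG00000055866, chr1:91415982-91459324, minus strand), the central repressor of the loop, was at 22.7, 18.4 and 18.3 CPM in WT and at 19.4, 26.1, 27.0, 27.0 and 23.9 CPM in KO 2 to KO 6. KO 2 alone lay within the WT range, and the log2 fold change was 0.32 (SE 0.14, adjusted p 0.165 in edgeR). Per3 (ENSMUSG00000028957, chr4:151003652-151044665, minus strand), the member least needed for the rhythm itself, was at 83.2, 80.1 and 76.6 CPM in WT and at 45.1, 73.2, 70.4, 70.7 and 68.0 CPM in KO 2 to KO 6. All KO libraries lay below WT, and KO 2 lay far below the other 4. The log2 fold change was -0.29 (SE 0.14, adjusted p 0.211 in edgeR) with KO 2 and -0.18 (SE 0.06, adjusted p 0.0814) without it.

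Clock (ENSMUSG00000029238, chr5:76209868-76304792, minus strand), which encodes the activating partner of BMAL1, split the KO libraries. It was at 185, 187 and 198 CPM in WT, at 212 CPM in KO 2, at 179 CPM in KO 3, and at 142, 136 and 136 CPM in KO 4 to KO 6. KO 2 was the highest of all libraries and KO 4 to KO 6 the lowest. Over all KO libraries the log2 fold change was -0.24 (SE 0.15, adjusted p 0.328 in edgeR).

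The output genes showed the smallest differences beside Cry1. Dbp (ENSMUSG00000059824, chr7:45705088-45710203, plus strand), the D-box activator with one of the deepest known daily rhythms, was at 116, 114 and 108 CPM in WT and at 129, 129, 95.4, 115 and 117 CPM in KO 2 to KO 6. KO 2 and KO 3 lay above WT, KO 4 below it, and KO 5 and KO 6 close to it. The log2 fold change was 0.05 (SE 0.11, adjusted p 0.790 in edgeR), with a 95% interval of -0.18 to 0.29, and 0.02 to 0.12 over the fits that left out 1 library, the highest without KO 4. Exons of Dbp overlap those of Sphk2, a sphingosine kinase gene on the opposite strand, by 539 bases. Sphk2 was low, at 13.9 CPM in WT and 16.7 CPM in KO on average. Ciart (ENSMUSG00000038550, chr3:95878503-95882251, minus strand), the repressor with 3 E-boxes in its window, was at 10.6, 11.8 and 9.41 CPM in WT and at 11.7, 12.6, 10.6, 11.3 and 12.4 CPM in KO 2 to KO 6. The groups overlapped, and the log2 fold change was 0.14 (SE 0.12, 95% interval -0.13 to 0.41, adjusted p 0.486 in edgeR). It was 0.06 without WT 3 and 0.23 without WT 2, and passed in neither. Of the 31-base words of Ciart, 20.8% also occur in Gm9176 on the same strand; how many of its counts are ambiguous was not measured.

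Levels can be compared between genes only per length. Divided by the length of the longest coding transcript, the WT level was highest for Dbp (61.5 ± 2.35 CPM per kilobase), Nr1d1 (55.9 ± 0.586) and Nr1d2 (50.6 ± 1.97). Cry2 followed at 28.7 ± 0.692 CPM per kilobase, then Clock at 19.5 ± 0.727, Cry1 at 18.4 ± 0.603, Per1 at 16.5 ± 0.414 and Per3 at 13.3 ± 0.548. Ciart (5.48 ± 0.628 CPM per kilobase) and Per2 (3.40 ± 0.429) were lowest (SD, n = 3 throughout). Clock and Cry1 were the only neighbours in this order whose WT libraries overlapped. In KO Nr1d1 was first (80.7 ± 15.6 CPM per kilobase, SD, n = 5) and Dbp next (63.8 ± 7.52), and the ranges of these genes overlapped.

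The clock genes were next compared with WT in KO 4 to KO 6 and in KO 2 and KO 3 separately. These sets were known from earlier results of the same data to stand apart, they share the WT libraries, and the difference between the sets was not tested. In KO 4 to KO 6, 6 of the 10 clock genes passed the test, where 42.8% of all tested genes did. Nr1d1, Cry2 and Per2 were higher (22.3% of all genes were), and Nr1d2, Clock and Per3 were lower (20.5%). In KO 2 and KO 3, 0 of the 10 passed in edgeR, where 0.891% of all genes did, and 3 (Nr1d1, Per1 and Per3) had an unadjusted p under 0.05, against 19.0% of all tested genes. KO 4 to KO 6 lay wholly on one side of WT in 7 of the 10 (52.4% of all genes), and KO 2 and KO 3 in 6 of the 10 (36.9%). The members were not tested against these shares. Cell type markers also moved in KO 4 to KO 6: 13 of the 18 retina markers passed, 6 higher and 7 lower, against the same 42.8%. With the correction for GC content described below, again 6 were higher and 7 lower, against 33.5% of all genes. Of 4 tested blood genes 3 were lower, and of 14 tested lens genes 14 were, against 20.5% of all genes. Of 9 pigment epithelium genes 3 were higher and 2 lower. Their part in the clock gene calls was not tested. In KO 2 and KO 3, 1 of the 18 retina markers (Arr3, the cone arrestin gene) was lower.

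Nr1d1 rose in KO 4 to KO 6 by 0.70 on the log2 scale (SE 0.07, adjusted p 1.52e-05 in edgeR) and was 0.24 higher (SE 0.10, adjusted p 0.253) in KO 2 and KO 3. Nr1d2 was -0.49 (SE 0.06, adjusted p 4.97e-05) in KO 4 to KO 6 and -0.10 (SE 0.10, adjusted p 0.614) in KO 2 and KO 3. Clock was -0.45 (SE 0.06, adjusted p 4.34e-05) in KO 4 to KO 6 and 0.04 (SE 0.11, adjusted p 0.881) in KO 2 and KO 3. The value was farther from zero in KO 4 to KO 6 for these 3 genes, and also for Cry1, Cry2 and Per2. Cry2 was 0.43 (SE 0.06, adjusted p 0.000109 in edgeR) in KO 4 to KO 6 and 0.22 (SE 0.11, adjusted p 0.313) in KO 2 and KO 3. Per2 was 0.40 (SE 0.10, adjusted p 0.00514) and 0.20 (SE 0.16, adjusted p 0.533) in the same order. Per3 was -0.19 (SE 0.06, adjusted p 0.0252) in KO 4 to KO 6 and -0.43 (SE 0.18, adjusted p 0.239) in KO 2 and KO 3, where KO 2 was far lower than KO 3. These 3 repressor genes had the same sign in both sets, as Nr1d1 and Nr1d2 did. Per1 was 0.20 (SE 0.08, adjusted p 0.0697) and 0.22 (SE 0.08, adjusted p 0.221), nearly the same in both sets. Dbp, Cry1 and Ciart did not pass in either set, with log2 fold changes of -0.04, -0.14 and 0.12 in KO 4 to KO 6 and of 0.19, -0.01 and 0.19 in KO 2 and KO 3.

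**Figure D2:**
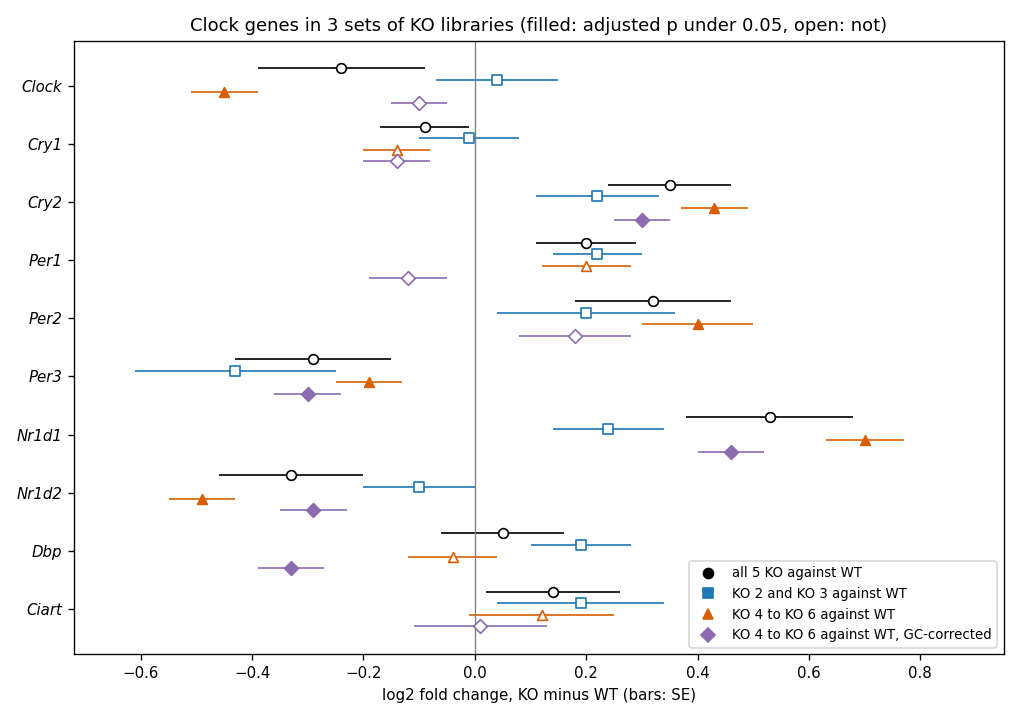
Log2 fold change, KO minus WT, with its SE for each clock gene, over all 5 KO libraries (circles), KO 2 and KO 3 (squares), KO 4 to KO 6 (triangles) and KO 4 to KO 6 with a GC content correction (diamonds). Filled symbols have an adjusted p under 0.05 in edgeR; for all KO libraries together and for KO 2 and KO 3 no symbol is filled.

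Fold changes moved with GC content, the share of G and C in a gene's transcripts. Across 17672 genes the Spearman correlation of GC content with the fold change of KO 4 to KO 6 was 0.519, and across 18043 genes it was 0.173 for KO 2 and KO 3 (descriptions across genes of the same libraries). The median log2 fold change in KO 4 to KO 6 was -0.35 for genes under 45% GC and 0.33 for genes over 55%. Clock has the lowest GC content of the 10, 41.5%, and Nr1d2 the next lowest, 45.1%. Nr1d1 has 56.4%, Per2 56.0%, Dbp 58.1% and Per1 59.3%. The clock genes that were lower in KO 4 to KO 6 were thus partly those poor in GC. With a smooth offset for GC content in each library, a fit that for KO 4 to KO 6 was added after seeing the data, 5 of the 10 passed in KO 4 to KO 6 (33.5% of all genes), and with all 8 libraries 0 of the 10 did (5.52%).

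The GC correction did not act on all clock genes alike. Nr1d1 (0.46, SE 0.06, adjusted p 0.000143 in edgeR), Cry2 (0.30, SE 0.05, adjusted p 0.00120) and Nr1d2 (-0.29, SE 0.06, adjusted p 0.00163) kept both direction and call in KO 4 to KO 6, closer to zero than their uncorrected 0.70, 0.43 and -0.49. Per3 also kept both and moved away from zero, from -0.19 to -0.30 (SE 0.06, adjusted p 0.00168). Clock shrank from -0.45 to -0.10 (SE 0.05, adjusted p 0.183) and Per2 from 0.40 to 0.18 (SE 0.10, adjusted p 0.178), and both lost the call. Per1 passed from 0.20 to -0.12 (SE 0.07, adjusted p 0.186). Dbp, at -0.04 before, was called lower at -0.33 (SE 0.06, adjusted p 0.00166), the uncorrected median of genes over 55% GC being 0.33. With all 8 libraries and the same correction, Nr1d1 was 0.36 (adjusted p 0.0944), Per3 -0.36 (adjusted p 0.113), Cry2 0.26 (adjusted p 0.133) and Nr1d2 -0.19 (adjusted p 0.284). Per2 was at 0.17 in that fit. Clock, Per1 and Dbp changed sign in it, Clock to 0.01, Per1 to -0.01 and Dbp to -0.13, and none of the 3 passed.

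**Figure D3:**
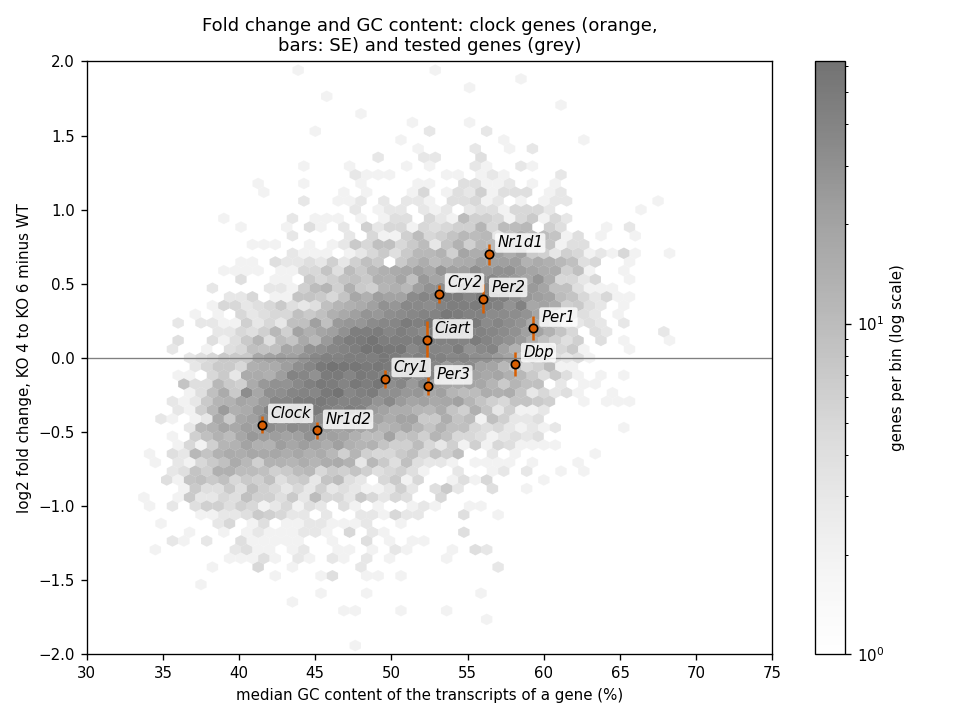
Log2 fold change of KO 4 to KO 6 against WT (no GC correction) by the median GC content of a gene's transcripts, for clock genes (orange, bars SE) and tested genes (grey, genes per bin on a log scale; 201 of 17672 genes lie outside the axes). Clock and Nr1d2 sit at the low end of GC content with log2 fold changes of -0.45 and -0.49, Nr1d1 at 56.4% GC with 0.70.

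Genes whose messages peak at different times of day can be set against each other within a library, which leaves library scaling aside. The mean log2 level of Dbp, Nr1d1, Nr1d2, Ciart and the Period genes, minus that of Bmal1, Npas2, Clock and Cry1, was 0.88, 0.71 and 0.61 in WT and 0.74, 0.89, 1.03, 1.03 and 1.14 in KO 2 to KO 6. KO 2 lay within the WT range, KO 3 just above it, and KO 4 to KO 6 above both. The means were 0.73 ± 0.13 in WT (SD, n = 3) and 0.97 ± 0.16 in KO (SD, n = 5), a difference of 0.23. The genes of a side did not all move together. In KO 4 to KO 6 the log2 fold changes were 0.70 (Nr1d1), 0.40 (Per2), 0.20 (Per1) and 0.12 (Ciart). Those of Nr1d2, Per3 and Dbp were -0.49, -0.19 and -0.04. On the other side Bmal1, Npas2, Clock and Cry1 were at -0.18, -0.19, -0.45 and -0.14, and Clock at -0.10 with the GC offset. The log2 ratio of Dbp to Bmal1 was 0.36, 0.21 and 0.25 in WT and 0.52, 0.53, 0.31, 0.50 and 0.42 in KO 2 to KO 6, so that KO 4 overlapped WT. The ratio of Nr1d1 to Bmal1, a repressor to its target, was 0.73, 0.63 and 0.74 in WT and 1.12, 0.88, 1.48, 1.70 and 1.56 in KO 2 to KO 6. Every KO library lay above WT, and the means were 0.70 ± 0.06 and 1.35 ± 0.34. The genes of these ratios differ in GC content, and the ratios carry no correction for it and no test.

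**Figure D4:**
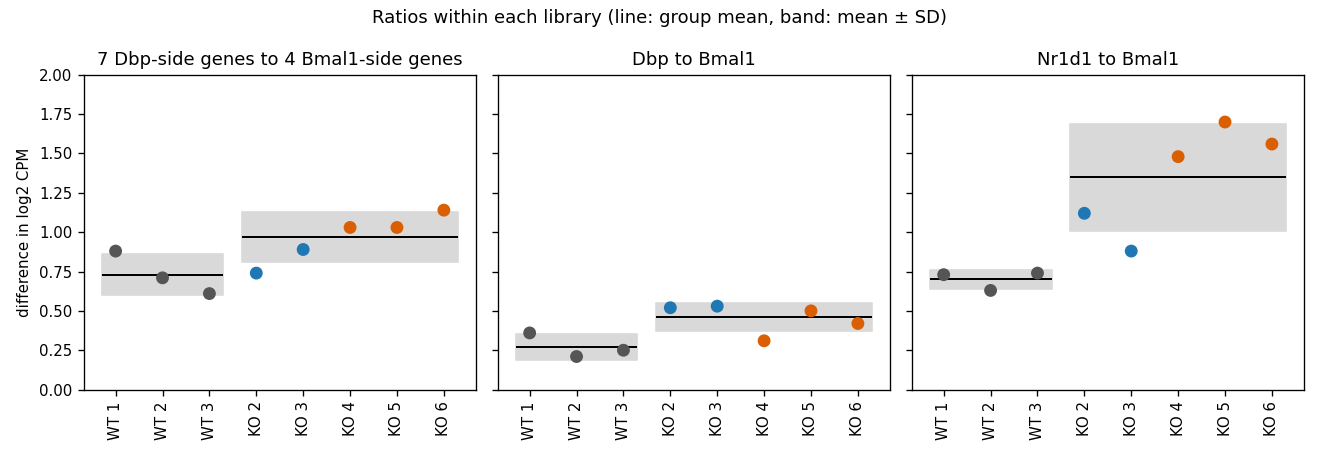
Difference in log2 CPM within each library between 7 Dbp-side and 4 Bmal1-side clock genes (left), Dbp and Bmal1 (middle) and Nr1d1 and Bmal1 (right); lines are group means, bands the mean ± SD. Grey is WT, blue KO 2 and KO 3, orange KO 4 to KO 6; the Nr1d1 to Bmal1 difference lies above 0.74, the highest WT value, in all 5 KO libraries.

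Of 22 other clock genes, all tested, 0 passed in edgeR with all 8 libraries (7.58% of all genes), 2 had an unadjusted p under 0.05 (27.3%), and their median log2 fold change was 0.04. DESeq2 also called 0 of the 22 (18.0% of all genes), and limma voom with quality weights 9 (40.9% of all genes). Bmal1, the partner of Clock, was at 90.7, 99.1 and 90.7 CPM in WT and at 89.9, 89.9, 77, 81.5 and 87.3 CPM in KO 2 to KO 6. All KO libraries lay below WT, by less than 1 CPM in KO 2 and KO 3, and the log2 fold change was -0.14 (SE 0.08, adjusted p 0.309 in edgeR). In KO 4 to KO 6 Bmal1 was called lower at -0.18 (adjusted p 0.0487), and with the GC offset it was -0.12 and not called (adjusted p 0.204). Npas2, a stand-in for Clock, was low at 2.41 ± 0.55 CPM in WT and 2.20 ± 0.408 CPM in KO (log2 -0.14, SE 0.23). Nfil3, the repressor at D-boxes, ranged from 11.7 to 12.6 CPM in WT and from 7.37 (KO 3) to 14.6 CPM (KO 6) in KO, with a log2 fold change of -0.07 (SE 0.20). Tef, a relative of Dbp, was at 270 ± 6.80 CPM in WT and 275 ± 21.2 CPM in KO (log2 0.02, SE 0.10). The E-box repressors Bhlhe40 and Bhlhe41 had log2 fold changes of 0.20 (SE 0.11, adjusted p 0.275) and 0.06 (SE 0.12, adjusted p 0.789). In KO 4 to KO 6, 10 of the 22 passed, 4 higher and 6 lower, against 42.8% of all genes. With the GC offset 5 passed there, Rorb higher and Rora, Tef, Nampt and Noct lower, against 33.5% of all genes, and of these Rora, Nampt and Noct were among the 10.

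Genes that tie the clock to retinal signalling were read from the same fit. Of 11 such genes (dopamine and melatonin receptors, their enzymes, melanopsin and others) 9 were in the table and 7 were tested, and Asmt and Mtnr1b were not analysed here. With all 8 libraries 0 of the 7 passed in edgeR (7.58% of all genes) and 2 had an unadjusted p under 0.05 (27.3%). DESeq2 called 1 (18.0% of all genes) and limma voom 2 (40.9%). In KO 4 to KO 6, 3 of the 7 passed, against 42.8% of all genes: the dopamine receptor gene Drd2 and the adenylyl cyclase gene Adcy1 were higher, and the dopamine receptor gene Drd1 was lower. With the GC offset Drd2 lost the call, going from 0.25 to 0.05 (adjusted p 0.577 in edgeR), and the other two kept theirs. In KO 2 and KO 3, 0 of the 7 passed (0.891% of all genes). The median log2 fold change of the 7 with all 8 libraries was 0.07.

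Genes induced quickly by light or activity were read from the same test. Of 10 tested, 6 rose with all 8 libraries and none fell, beside 4.74% of all genes that were higher, and their median log2 fold change was 1.02. Egr1, a zinc finger factor, was at 12.4, 14.8 and 18.5 CPM in WT and at 161, 128, 120, 136 and 76.9 CPM in KO 2 to KO 6 (log2 3.03, SE 0.24, adjusted p 0.000142 in edgeR). The others were the AP-1 genes Fos (log2 1.46, adjusted p 0.000746), Junb (1.27, adjusted p 0.00513) and Fosb (1.01, adjusted p 0.00843), the nuclear receptor gene Nr4a1 (1.42, adjusted p 0.000564) and Ier2 (1.03, adjusted p 0.00917). In KO 2 and KO 3 alone, 5 of 9 tested passed, all higher, beside 0.891% of all genes called in either direction. In KO 4 to KO 6, 7 of 10 passed, all higher, beside 22.3% of all genes that were higher. Within the clock list, Per1 and Per2, the members known to respond to light, had log2 fold changes of 0.20 and 0.32 with all 8 libraries and did not pass edgeR's test there. Per2 passed in KO 4 to KO 6 and lost that call with the GC offset, where Per1 was at -0.12, as given above. Of 10 retinal stress genes 9 rose with all 8 libraries, beside 4.74% of all genes, and 10 rose in KO 4 to KO 6, beside 22.3%. Their summed level was 128 to 145 CPM in WT and 313 to 554 CPM in KO. Of 7 microglial genes 2 rose with all 8 libraries, beside the same 4.74%. With the GC offset 0 of the 7 passed in edgeR (5.52% of all genes), and in KO 2 and KO 3 it was also 0 (0.891%). In KO 4 to KO 6, 4 of the 7 were higher, beside 22.3% of all genes. With the GC offset there 1 was higher, beside 33.5% of all genes called in either direction. The summed level of the 7 was 24.4 to 27.3 CPM in WT and 30.3 to 42.3 CPM in KO. Their part in the clock gene levels was not tested, and in pooled retina fewer cells of a type and less RNA per cell cannot be told apart.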

How the data were processed

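The authors deposited 1 table of estimated counts per gene, whole numbers without normalization, for 3 WT and 5 KO libraries. Per the submitters' processing notes, Trim Galore, Salmon 1.10.2, DESeq2 and the GRCm38 build were used; their roles, the annotation release and the strand setting are not given in the sources used here. The smallest sum of a gene over the libraries is 16 counts. GENCODE M21 (GRCm38) held 22121 of the 26824 gene identifiers and gave positions, length, GC content and shared 31-base words. It held all 10 clock genes.

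Counts were scaled by TMM and filtered with filterByExpr in edgeR 4.0.16 (R 4.3.3), which left 20167 genes. KO was tested against WT by edgeR's quasi-likelihood method on the whole table, with Benjamini-Hochberg adjustment over all tested genes and a threshold of 0.05. SEs were obtained by dividing the fold change by the root of F, intervals (95%) from the matching t distribution. Log2 ratios used a prior count of 2. The GC correction was a per-library offset from a smoothing spline with 6 degrees of freedom. Alternatives were DESeq2 1.42.0, limma 3.58.1 voom with quality weights, other scalings, filters and offsets, and fits without libraries. The edgeR steps were tested on simulated data.

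The genes, lists and sets of libraries were chosen with earlier results of these data known. The rule for named genes took all 10 members, genes of the other clock, retinal rhythm and activity-induced lists called with all 8 libraries, 6 further clock genes set by name, Kcnv2, and the 3 genes nearest to Dbp in pattern. Genes that overlap or share sequence with a member, and Drd1, Drd2, Adcy1, Arr3, Rora, Rorb, Nampt and Noct, were named outside that rule, after their values were seen. The floor of 3 counts equals 0.130 to 0.164 CPM and covers counting error only. Replicates are libraries of separate animals, and no pair within a group agreed within sampling noise (chi-square per degree of freedom 5.85 or more).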

Additional observations from a re-analysis of the deposited data

Results flagged for a closer look

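Of 26 gene levels and ratios looked at in the 5 KO libraries, 3 had 1 library far from the others. Its gap divided by the whole range passed Dixon's limit of 0.71. Chance would give about 1.3 of 26 separate values. These values share the same 5 libraries and are not separate, so the count of 3 cannot be judged against that number. In each of the 3 the library was KO 2. For Per3, KO 2 stood at 45.1 CPM and the other KO libraries at 68.0 to 73.2 CPM, a quotient of 0.813. For Tef, KO 2 stood at 312 CPM and the others at 259 to 273 CPM, a quotient of 0.726. For Kcnv2, KO 2 stood at 585 CPM and the others at 398 to 447 CPM, a quotient of 0.738.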

How the results depend on the processing

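Over 36 alternatives per gene, Nr1d1, Cry2, Per2, Per3, Nr1d2, Cry1 and Ciart kept the sign of their log2 fold change in 36, Per1 in 34, Dbp in 32 and Clock in 29. Nr1d1 passed the test in 10 of them, Cry2 in 8, Nr1d2 in 5, Per2 and Per3 in 3, Clock in 2, Dbp in 1, and Per1, Cry1 and Ciart in 0. The alternatives refit the same libraries and are not separate tests. Every pass came from DESeq2, limma voom, robust edgeR or a fit without KO 2, KO 3 or both. Dbp turned to -0.33 and Tef to -0.16 in KO 4 to KO 6 with the GC offset; these offsets remove the trend with GC content by construction.

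The count of all genes called, 1529 with all libraries, was 3127 by DESeq2, 8248 by limma voom, 180 in KO 2 and KO 3, 995 with the GC offset, 168 in KO 2 and KO 3 with it and 5915 in KO 4 to KO 6 with it. Leaving out 1 or 2 libraries gave 118 to 8416. Clock genes called were 0 with all libraries, 2 by DESeq2, 6 by voom, 1 by robust edgeR, 5 in KO 4 to KO 6 with the GC offset, and 0 to 6 without 1 or 2 libraries. For the other clock genes it was 9 by voom, 5 in KO 4 to KO 6 with the GC offset and 0 to 10 without libraries. For the retinal rhythm genes it was 1 by DESeq2, 2 by voom, 1 by robust edgeR, 2 in KO 4 to KO 6 with the GC offset and 0 to 3 without libraries. Scaling by library size alone gave 566 genes higher and 787 lower in place of 956 and 573, with a median of -0.032 over all genes in place of 0.001; no clock gene was called with it. The causes were not tested.

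The numbers 2 and 3 occur in both groups and come from library names. Deviations from the group means had a correlation of -0.00 for WT 2 with KO 2 and of -0.24 for WT 3 with KO 3, and the labels give no pairing. On these 4 libraries, 52 genes were called with the number as a replicate block, 14 with no block, 54 with the block and the GC offset and 527 with the crossed pairing, and no clock gene was called in any of them. For the activity-induced genes the counts were 3 with the block, 2 with no block and 3 with the block and the GC offset.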

Other observations

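The genes whose pattern over the 8 libraries was nearest to that of Dbp, among 11256 genes whose log2 CPM averaged 3 or more, were Ctdsp1, BC004004 and H1f0, with root mean square distances of 0.047, 0.064 and 0.066 in log2 CPM after centring each gene on its mean. Dbp itself varied little (SD of log2 CPM 0.14), so the distance is also small for other genes with little spread. Of the other clock genes Ciart (0.11), Cry1 (0.12) and Per1 (0.13) had the smallest distances to Dbp, at ranks 198, 279 and 466 among all these genes, and Nr1d1 (0.36) and Per3 (0.33) the largest.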
